A study of Mus musculus with 6 samples.

Results

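A set of 10 genes used as markers or regulators of spermatogonial stem cells was followed in RNA sequencing libraries from mouse testis: Gfra1, Ret, Etv5, Id4, Zbtb16, Nanos2, Nanos3, Lin28a, Uchl1 and Eomes. They were taken by name, and all 10 were found among the 54532 genes of the deposited table. The 6 libraries came from suspensions of testis cells labelled STRA8+. The 3 knockout libraries (cKO) carry the genotype label knockout, and the 3 control libraries (Control) carry the label Cre. The labels do not name the deleted gene, the promoter that drives Cre, the strain or the age, and they do not say whether libraries came from separate animals or from pooled ones, so a p-value here reflects library-to-library variation that could be technical in origin. The study's title names BCAS2 and hnRNPH1, 2 proteins of RNA splicing, and the comparison of cKO with Control asks which transcripts differ after the deletion.

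Spermatogonial stem cells sit on the basement membrane of the seminiferous tubule, where they renew themselves and give rise to progenitors that later respond to retinoic acid and enter meiosis. Sertoli cells secrete GDNF, which binds the co-receptor GFRA1 and signals through the receptor tyrosine kinase RET, and among the genes that respond are transcriptional regulators of self-renewal. GFRA1, ID4, NANOS2 and EOMES mark the most primitive cells, whereas LIN28A and NANOS3 are more typical of progenitors, and ZBTB16 (PLZF) and UCHL1 are found throughout the undifferentiated population.

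Levels are deposited FPKM (fragments per kilobase of gene and per 1000000 units of a library divisor set by the authors); group values are mean ± SD with n = 3 libraries. Genes were tested with limma on log2(FPKM + 0.5) where their mean over all 6 libraries was at least 1 FPKM, and a gene was called at an adjusted p under 0.05. Fold changes on this scale understate the change of genes with low values. Recovered reads totalled 14770320 to 15204127 per cKO library and 14532453 to 16963019 per Control library. Bcas2 had 4.85 ± 0.515 FPKM in cKO and 19.9 ± 0.586 FPKM in Control, with a log2 fold change of -1.93 and a limma adjusted p of 7.6e-07. The median log2 fold change over the 16791 genes tested was -0.41. It was higher by 1.12 when each library's FPKM was rescaled to a sum of 1000000, by 0.83 with reads rescaled to 1000000 and by 0.94 after quantile normalization, so the direction of a small change depends on the scaling. Summed FPKM of 16 spermatid genes was 17.5 to 22.6 in cKO and 19722 to 22991 in Control, and that of 18 pachytene spermatocyte genes was 215 to 270.2 in cKO and 8247 to 9760 in Control. All 16 and all 18 were called lower, beside 50.4% of all genes tested. Stra8, the gene of the cell label, had 132.8 ± 6.42 FPKM in cKO and 17.0 ± 5.55 FPKM in Control. The labels' extraction text names retina, and of 20 retinal genes 14 stayed under 1 FPKM in every library and 2 were listed at 0 throughout. Of the 4 retinal genes tested 2 were called higher and 1 lower, beside 36.2% and 50.4% of all genes tested.

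The 10 genes did not move together. Zbtb16, Lin28a and Uchl1 rose in cKO, each with a group mean more than 5 times that of Control, and Etv5 rose by a smaller factor. Id4 and Gfra1 fell, Nanos3 did not pass the test, and Ret, Nanos2 and Eomes were too low to be tested. Of the 7 genes tested, 4 were called higher and 2 lower, beside 36.2% of all genes tested called higher and 50.4% called lower. With FPKM rescaled to sum to 1000000 the counts were 5 higher and 1 lower, beside 54.2% and 36.2% of all genes tested. The median log2 fold change of the 7 was 0.84 under the deposited scaling. Among all 10, the libraries of the groups did not overlap in 7 cases, 5 higher in cKO and 2 lower, where 24.7% and 35.5% of the genes with any read were separated in these directions; among genes tested the shares were 36.9% and 51.1%. Those shares show that separation of the groups is common in this table, so the count alone marks out nothing about the 10 genes. In bulk samples, fewer cells of a type and less RNA per cell cannot be told apart.

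**Figure D1:**
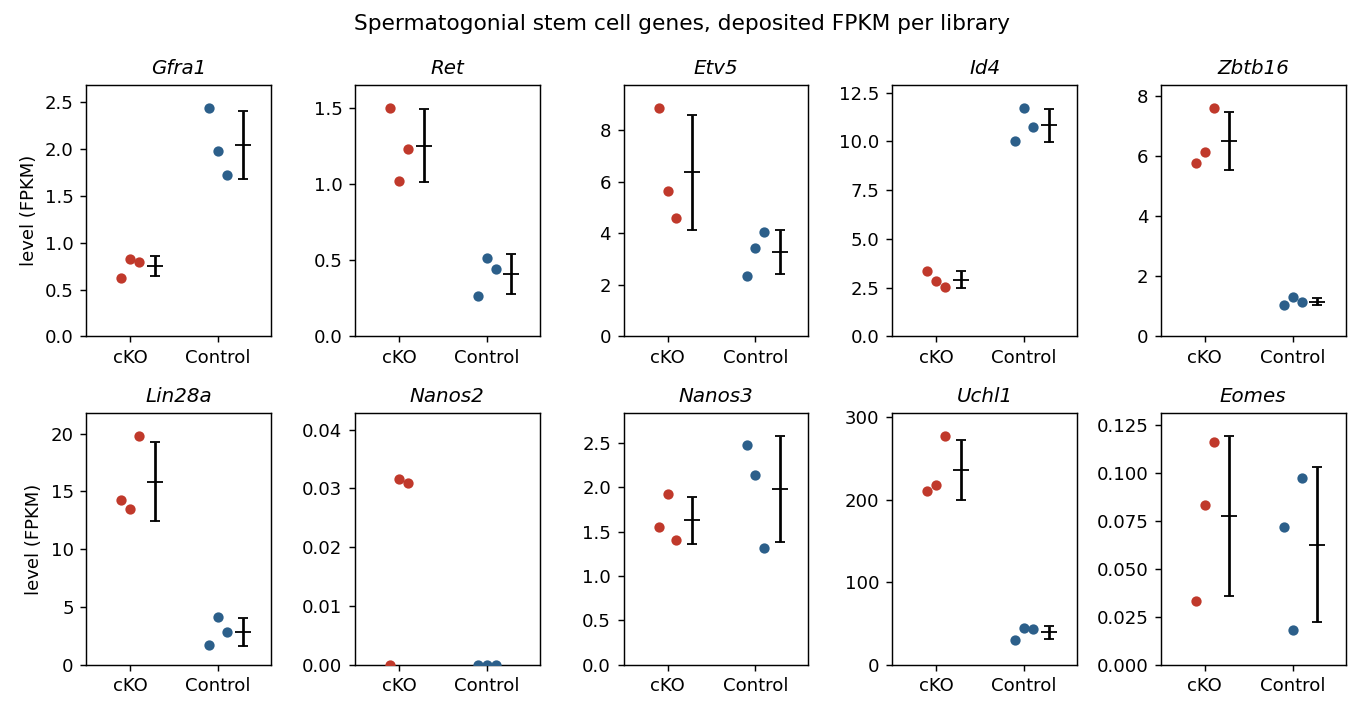
Deposited FPKM of the 10 spermatogonial stem cell genes. Each panel has its own linear axis from 0; points are the 3 cKO and 3 Control libraries and black marks are group means with SD, left out where a library is listed at 0. Zbtb16, Lin28a, Uchl1, Ret and Etv5 lie higher in all cKO libraries, Gfra1 and Id4 lie lower, and Nanos3, Nanos2 and Eomes overlap.

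Uchl1 (mm10 chr5:66676091-66687234, plus strand), a deubiquitinase abundant in spermatogonia and neurons, was the highest of the 10 in both groups. Its level was 210.8, 218.3 and 277.2 FPKM in the cKO libraries, against 29.7, 44.6 and 42.7 FPKM in the Control libraries. The lowest cKO library was well above the highest Control library. The group mean was 6.03 times higher in cKO, with a log2 fold change of 2.59 ± 0.176 (SE) and a limma adjusted p of 3e-06. Uchl1 made up 85.4 to 87.9% of the summed FPKM of the 10 genes in cKO and 59.4 to 65.6% in Control. An antisense gene, Uchl1os, shares 295 exonic bases with it and had 0.361 to 0.401 FPKM in cKO and 0 to 0.104 FPKM in Control. The sources used here do not say whether counting used strand. Its paralogs Uchl3 and Uchl5, also deubiquitinases, fell, to 12.5 ± 2.14 and 11.6 ± 1.73 FPKM in cKO, against 40.3 ± 6.12 and 28.9 ± 5.60 FPKM in Control. With FPKM rescaled to sum to 1000000 their log2 fold changes were -0.50 and -0.12, and Uchl5 was not called (limma adjusted p of 0.45).

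Lin28a (chr4:134003330-134018841, minus strand) encodes an RNA-binding protein that blocks the maturation of let-7 microRNAs. It reached 14.3, 13.5 and 19.8 FPKM in cKO, against 1.67, 4.10 and 2.82 FPKM in Control. The groups were clearly apart although the Control libraries spread over more than a factor of 2. The log2 fold change was 2.33 ± 0.274 (SE), with a limma adjusted p of 7.7e-05. An antisense transcript, Gm13061, shares 234 exonic bases and had 0.819 to 1.02 FPKM in cKO and 0 to 0.122 FPKM in Control. Lin28b, its paralog, rose too, to 6.57 ± 0.803 FPKM in cKO, against 2.29 ± 0.341 FPKM in Control (limma adjusted p of 5.1e-05).

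Zbtb16 (chr9:48654297-48836222, minus strand) encodes PLZF, a transcriptional repressor required to maintain spermatogonial stem cells. It had 5.79, 6.14 and 7.61 FPKM in cKO, against 1.04, 1.30 and 1.15 FPKM in Control. Replicates lay close together in both groups. The log2 fold change was 2.07 ± 0.147 (SE), with a limma adjusted p of 3.8e-06, and the group mean was 5.61 times higher in cKO. Zbtb32, which encodes a related BTB zinc finger protein, fell to 17.2 ± 0.612 FPKM in cKO, against 50.8 ± 3.59 FPKM in Control (limma adjusted p of 1.1e-06).

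Id4 (chr13:48261228-48266026, plus strand) encodes an inhibitor of helix-loop-helix transcription factors and marks the stem cell fraction of spermatogonia. It had 3.37, 2.84 and 2.55 FPKM in cKO, against 10.02, 11.7 and 10.8 FPKM in Control. The highest cKO library was far below the lowest Control library, and the group mean was 3.71-fold lower in cKO. The log2 fold change was -1.73 ± 0.129 (SE), with a limma adjusted p of 5e-06. It was -0.69 to -1.08 under the 3 other scalings, and the call was kept under each. The 3 paralogs of Id4 went the other way. Id1, Id2 and Id3, which encode inhibitors of the same kind, had 2.27 ± 0.642, 3.52 ± 0.925 and 2.49 ± 0.106 FPKM in cKO, against 0.841 ± 0.469, 1.72 ± 0.307 and 1.01 ± 0.326 FPKM in Control, with limma adjusted p of 0.0066, 0.0040 and 0.0012. Id4 was the most abundant of the 4 in Control, whereas in cKO its libraries overlapped those of Id2.

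The stretch before the start of Id4 differs in composition from that of Lin28a, a rising gene; neither window overlaps an annotated exon. Both are shown over 200 bases, from 250 to 51 bases before the RefSeq start in GRCm38.p6, on the gene's own strand and from 5′ to 3′. Capitals mark the GC box GGGCGG, the CCAAT box CCAAT and the E-box CANNTG, searched on both strands. The Id4 window is chr13:48260866-48261065 on the plus strand and the Lin28a window is chr4:134018867-134019066 on the minus strand.
Id4: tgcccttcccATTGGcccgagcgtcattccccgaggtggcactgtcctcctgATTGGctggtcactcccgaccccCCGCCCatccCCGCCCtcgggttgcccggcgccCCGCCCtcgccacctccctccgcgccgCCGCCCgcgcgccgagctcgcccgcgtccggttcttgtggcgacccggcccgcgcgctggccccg
Lin28a: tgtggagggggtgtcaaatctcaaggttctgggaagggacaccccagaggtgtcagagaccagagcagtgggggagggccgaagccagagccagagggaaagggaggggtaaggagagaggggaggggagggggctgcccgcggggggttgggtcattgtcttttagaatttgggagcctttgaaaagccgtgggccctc
The Id4 window held 4 GC boxes, 2 CCAAT boxes and no E-box, with 77.5% G and C and 29 CpG sites. None of the 3 motifs was found in the Lin28a window, which had 61.5% G and C and 4 CpG sites. Of 32851 windows of the same length in the RefSeq table, 24.6% held a GC box, 28.4% a CCAAT box and 59.0% an E-box, and the median was 51.5% G and C. Windows were found for 8 of the 10 genes, with 9 start sites. The 2 windows of Etv5, which rose, had 71% G and C with 2 GC boxes and 60% G and C with 0 GC boxes, and 99 bases of the first are exonic. That of Gfra1, which fell, had 52% and 0 GC boxes, and 188 of its bases are exonic. These matches describe the letters only.

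The receptor for GDNF was divided, with its co-receptor lower and its kinase higher in cKO. Gfra1 (chr19:58235604-58455909, minus strand) had 0.624, 0.830 and 0.794 FPKM in cKO, against 2.44, 1.97 and 1.72 FPKM in Control. The groups did not overlap, and the log2 fold change was -1.02 ± 0.172 (SE) with a limma adjusted p of 0.00066. This call depended on the scaling: the log2 fold change was -0.23 with FPKM rescaled to sum to 1000000 (limma adjusted p of 0.29), -0.37 with reads rescaled to 1000000 (0.048) and 0.30 after quantile normalization (0.22). Relative to the median of all genes tested, Gfra1 stood at -0.61, -0.93, -0.79 and -0.23 under the deposited scaling and these 3 others.

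Ret (chr6:118151745-118197718, minus strand) had 1.503, 1.02 and 1.24 FPKM in cKO, against 0.265, 0.518 and 0.444 FPKM in Control. Every cKO library was above every Control library. Its mean of 0.831 FPKM over all libraries was under the filter, so it has no test in the main comparison. It rests on 533 reads in cKO and 101 in Control, a scaled read ratio of 2.99 (exact 95% bounds 2.42 and 3.74, for counting error alone). With no filter on low values its log2 fold change was 0.95 ± 0.196 (SE) with a limma adjusted p of 0.0058, where 21.6% of 37309 genes were called higher and 32.8% lower. The levels of the 2 receptor parts thus changed places: Ret was above Gfra1 in each cKO library, whereas Gfra1 was above Ret in each Control library.

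The other co-receptors of RET differed by more than Gfra1. Gfra2, the co-receptor for neurturin, had 0.209, 0 and 0.0682 FPKM in cKO, against 19.4, 15.01 and 14.9 FPKM in Control, so it was close to absent in cKO. Gfra4, the co-receptor for persephin, fell to 2.11 ± 0.495 FPKM in cKO, against 15.01 ± 0.978 FPKM in Control. The Control libraries of Gfra2 and Gfra4 overlapped, and both lay above Gfra1 and Gfra3 there. Gfra3, the co-receptor for artemin, rose to 1.85 ± 0.672 FPKM in cKO, against 0.314 ± 0.168 FPKM in Control. With a mean of 1.08 FPKM over all libraries, Gfra3 reached the filter through its cKO level, as Gfra2 did through its Control level. Limma adjusted p was 7.8e-08, 1.7e-06 and 0.00069 for Gfra2, Gfra4 and Gfra3, and all 3 kept their call and direction with FPKM rescaled to sum to 1000000.

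Among the ligands, Gdnf had 1.07, 0.565 and 0.394 FPKM in cKO, against 0.190, 0.145 and 0.486 FPKM in Control, and the groups overlapped. Nrtn, which encodes neurturin, rose to 16.4 ± 1.57 FPKM in cKO, against 10.9 ± 0.773 FPKM in Control (limma adjusted p of 0.0013). Artn, which encodes artemin, fell to 0.299 ± 0.0886 FPKM in cKO, against 3.40 ± 0.227 FPKM in Control (limma adjusted p of 3.2e-06). Ncam1, an alternative partner of GFRA1, fell to 0.144 ± 0.0332 FPKM in cKO, against 2.83 ± 0.390 FPKM in Control (limma adjusted p of 3.7e-06). These ligands and Ncam1 were named after their values were seen.

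**Figure D2:**
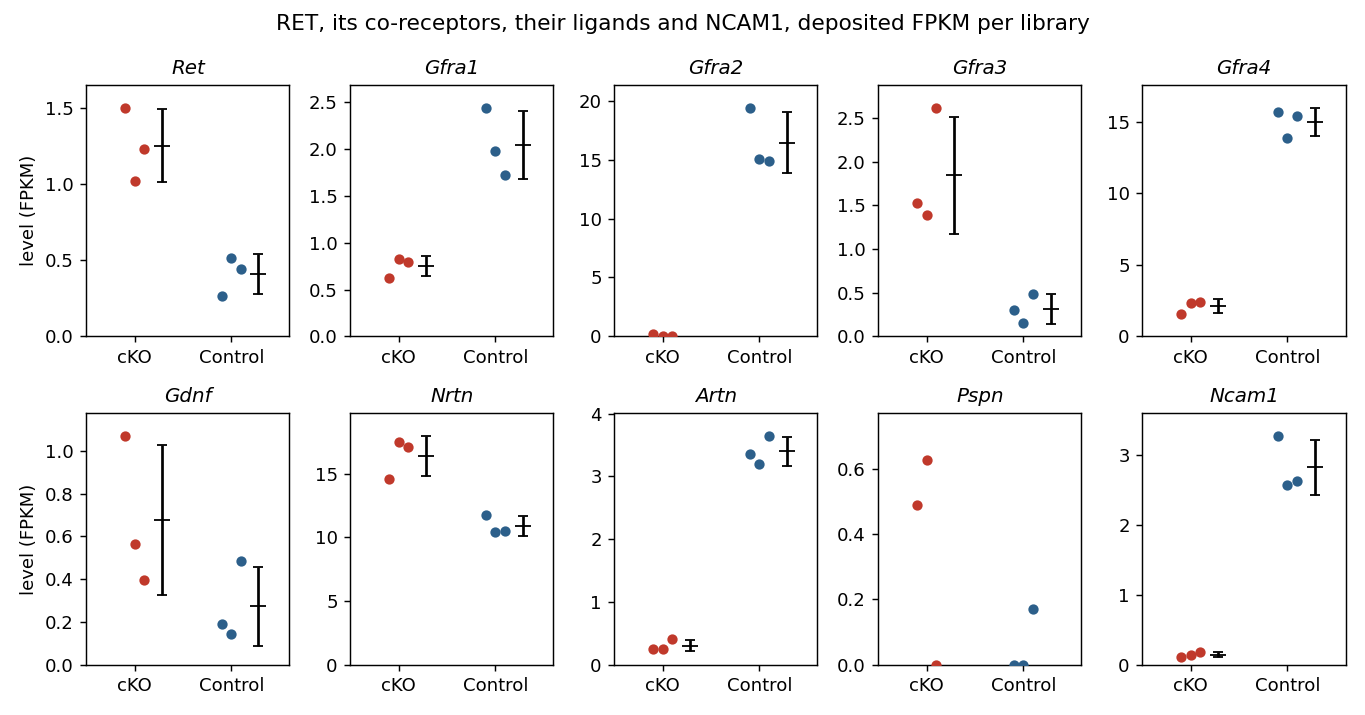
Deposited FPKM of Ret, its 4 co-receptors Gfra1 to Gfra4, 4 ligands and Ncam1. Points are the 3 cKO and 3 Control libraries on linear axes from 0, with group means and SD (left out where a library is listed at 0). Ret, Gfra3 and Nrtn lie higher in cKO, Gfra1, Gfra2, Gfra4, Artn and Ncam1 lie lower, and Gdnf and Pspn overlap.

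Further down the pathway, 21 of 35 tested genes of GDNF signalling were called higher and 10 lower, out of 42 listed, with a median log2 fold change of 0.63 beside -0.41 for all genes tested, of which 36.2% were called higher and 50.4% lower. With FPKM rescaled to sum to 1000000 the counts were 28 higher and 4 lower, beside 54.2% and 36.2%. Mapk3, Map2k2 and Nras, of the MAP kinase cascade and among the most abundant members, had log2 fold changes of -1.46, -0.34 and -1.12, which became -0.29, 0.84 and 0.04 under that scaling.

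Etv5 (chr16:22381309-22439719, minus strand), an ETS transcription factor that GDNF and FGF signals induce in spermatogonia and that Sertoli cells also express, had 8.86, 5.65 and 4.59 FPKM in cKO, against 2.36, 3.43 and 4.04 FPKM in Control. The groups did not overlap, but cKO replicate 3 was close to Control replicate 3. The log2 fold change was 0.84 ± 0.258 (SE) with a limma adjusted p of 0.015, and without Control replicate 1 it was 0.65 with a limma adjusted p of 0.065. Its paralogs Etv1 and Etv4 stayed under 1 FPKM in every library. The summed level of 20 Sertoli cell genes was 1312, 863.2 and 747.6 FPKM in cKO replicates 1 to 3, against 207.8, 336.0 and 404.6 FPKM in Control replicates 1 to 3. Etv5 was highest in the cKO library with the highest Sertoli sum and lowest in the Control library with the lowest. Per 1000 FPKM of that sum, Etv5 stood at 6.76, 6.54 and 6.14 in cKO, against 11.3, 10.2 and 9.97 in Control, a ratio computed after the values were seen, which lay lower in cKO. Of 18 Sertoli genes tested, 17 were called higher and 1 lower, beside 36.2% and 50.4% of all genes tested. Their median log2 fold change was 1.65, and none of the 20 was listed at 0 throughout. The ratio carries no test, and the part of these cells in the result for Etv5 was not tested.

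Of 17 listed genes of the FGF pathway, 6 reached the filter. These 6 were called higher by limma, beside 36.2% of all genes tested, with a median log2 fold change of 0.98. The filter takes the mean over all 6 libraries, and Fgfr1 reached it through its cKO level. The count therefore depends in part on the filter. Dusp6 and Spred1, feedback inhibitors of MAP kinase signalling, had 7.31 ± 1.53 and 7.61 ± 0.467 FPKM in cKO, against 2.19 ± 0.658 and 2.07 ± 0.494 FPKM in Control. The receptor gene Fgfr1 had 2.63 ± 0.253 FPKM in cKO and 0.853 ± 0.270 FPKM in Control. The other 11 genes were too low for the test. Among them Fgfr4, another receptor gene, lay lower, at 0.321 ± 0.0447 FPKM in cKO and 1.36 ± 0.386 FPKM in Control, and with no filter on low values it was called lower (log2 fold change of -1.16, limma adjusted p of 0.0024). Fgf8, which encodes a ligand, and Spry4, a feedback inhibitor, overlapped between the groups. Fgfr4, Fgf8 and Spry4 were named after their values were seen.

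Of the NANOS proteins, which repress mRNAs together with the CCR4-NOT deadenylase, the stem cell member was nearly undetected. Nanos2 (chr7:18987400-18988962, plus strand) had 0, 1 and 1 reads in the cKO libraries and 0 in each Control library, which allows up to 3 reads over the Control group, so no fold is given. At this depth a difference in Nanos2 was not detectable. Nanos3 (chr8:84173731-84185217, minus strand) had 1.55, 1.93 and 1.41 FPKM in cKO, against 2.48, 2.14 and 1.32 FPKM in Control, with overlapping groups. Its log2 fold change was -0.20 ± 0.215 (SE) with a limma adjusted p of 0.41. It turned positive and was called with FPKM rescaled to sum to 1000000 (0.86, limma adjusted p of 0.011), with reads rescaled to 1000000 (0.52, 0.038) and after quantile normalization (0.94, 0.015). Nanos3 rests on 94 reads in cKO and 64 in Control, a scaled read ratio of 0.833 (exact 95% bounds 0.600 and 1.16). Nanos1, a paralog not among the 10, rose to 9.15 ± 0.929 FPKM in cKO, against 1.79 ± 0.737 FPKM in Control (limma adjusted p of 4.7e-05), and was the most abundant of the 3 in cKO. Among 21 genes of the CCR4-NOT complex and its partners, 12 were called higher and 6 lower, beside 36.2% and 50.4% of all genes tested. Their median log2 fold change was 0.60. Cnot1, the scaffold of the complex, had 27.2 ± 1.20 FPKM in cKO and 62.9 ± 3.82 FPKM in Control, a difference that was not called with FPKM rescaled to sum to 1000000 (log2 fold change of -0.02). Btg1 and Tob1, partners that regulate deadenylation, had log2 fold changes of -2.10 and -0.27. Under the same rescaling Btg1 stood at -0.95, whereas Tob1 turned to 0.91 (limma adjusted p of 0.00026). Their relatives Btg2 and Tob2, named after their values were seen, rose, with log2 fold changes of 1.81 and 0.84 and limma adjusted p of 0.00014 and 0.00016.

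Eomes (chr9:118478212-118486132, plus strand), a T-box factor of the most primitive spermatogonia and of natural killer cells, had 3, 7 and 10 reads in the cKO libraries and 3, 1 and 5 in the Control libraries. Its levels of 0.0334 to 0.116 FPKM in cKO and 0.0183 to 0.0977 FPKM in Control overlapped. The scaled read ratio was 1.26 (exact 95% bounds 0.549 and 3.14), and a difference within these bounds was not detectable at this depth. Of 14 genes of natural killer and T cells, 10 stayed under 1 FPKM in every library. Of the 2 tested 1 was called higher and 1 lower, beside 36.2% and 50.4% of all genes tested.

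**Figure D3:**
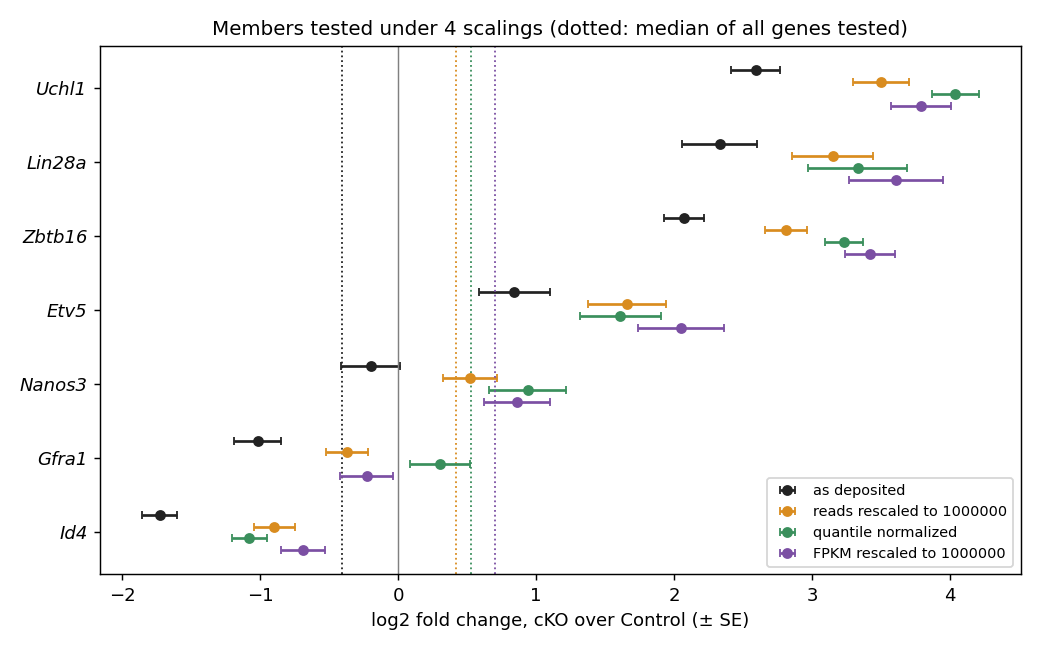
Log2 fold change of cKO over Control, with SE, for the 7 tested genes under the deposited scaling and 3 others. Dotted lines are the median of all genes tested under each scaling. Uchl1, Lin28a, Zbtb16 and Etv5 are above 0 and Id4 is below 0 under all 4, whereas Gfra1 and Nanos3 lie on both sides of 0.

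Ratios between 2 genes of the same library do not depend on a scaling by a single factor per library, though quantile normalization can change them. Id4 stood at 0.583, 0.462 and 0.334 times Zbtb16 in cKO, against 9.66, 9.04 and 9.33 times in Control. The ratio of the geometric means was 20.8-fold lower in cKO, and the Control libraries agreed closely. Gfra1 stood at 0.415, 0.812 and 0.642 times Ret in cKO, against 9.19, 3.81 and 3.87 times in Control. Lin28a stood at 22.9, 16.3 and 24.9 times Gfra1 in cKO, against 0.685, 2.07 and 1.64 times in Control. The ratios of Id4 to Uchl1 and of Etv5 to Gfra1 differed by -4.50 and 2.38 on the log2 scale, and their groups did not overlap either. Uchl1 kept about the same ratio to Zbtb16, at 36.4, 35.6 and 36.4 in cKO and 28.7, 34.4 and 37.0 in Control, and these groups overlapped. For the first 5 of these 6 ratios the exact two-sided permutation p was 0.10, the smallest that 3 libraries against 3 allow, and the Benjamini-Hochberg adjusted p was 0.12, so none passes 0.05. For Uchl1 to Zbtb16 it was 0.40.

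**Figure D4:**
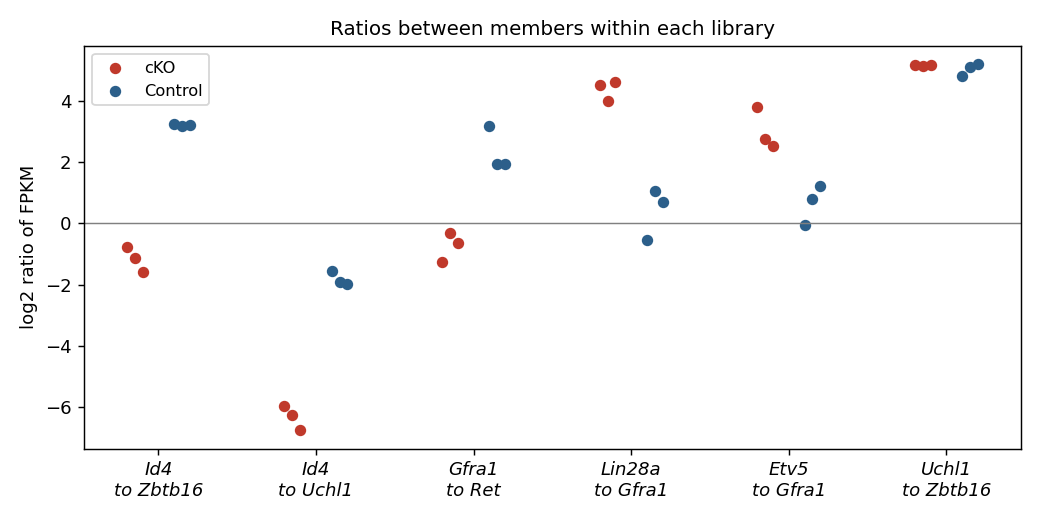
Log2 ratio of FPKM between pairs of the 10 genes within each library, for the 3 cKO and 3 Control libraries. Id4 is below Zbtb16 in every cKO library and above it in every Control library, and the ratio of Uchl1 to Zbtb16 overlaps between the groups.

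The order of the genes by level therefore differed between the groups. In cKO it was Uchl1, Lin28a, Zbtb16, Etv5, Id4, Nanos3, Ret, Gfra1, Eomes and Nanos2, and the ranges of Zbtb16 and Etv5 and those of Nanos3 and Ret overlapped. In Control it was Uchl1, Id4, Etv5, Lin28a, Gfra1, Nanos3, Zbtb16, Ret, Eomes and Nanos2, and neighbours from Etv5 to Nanos3 overlapped in range. The 10 genes together took 0.0672 to 0.0860% of the recovered reads in cKO and 0.00875 to 0.0133% in Control.

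Other genes of undifferentiated spermatogonia mostly went with the rising members. Of 27 tested out of 40 listed, 23 were called higher and 2 lower, beside 36.2% and 50.4% of all genes tested. Their median log2 fold change was 1.96, beside -0.41 for all genes tested. With FPKM rescaled to sum to 1000000 the counts were 26 higher and 0 lower, beside 54.2% and 36.2%. The filter takes the mean over all 6 libraries, and Mycn, Pou3f1, Upp1 and Utf1 reached it through their cKO level. Their Control means were 0.892, 0.744, 0.550 and 0.409 FPKM. The counts therefore depend in part on the filter. The 4 most abundant included Nxf2, an mRNA export factor, with 93.0 ± 11.2 FPKM in cKO and 21.2 ± 3.37 FPKM in Control, and Itgb1, an integrin subunit, with 55.2 ± 3.77 FPKM in cKO and 14.2 ± 3.96 FPKM in Control. Epcam, an adhesion molecule, had 44.1 ± 1.30 FPKM in cKO and 21.8 ± 2.39 FPKM in Control. Bmi1, a Polycomb subunit, was called lower, at 35.5 ± 2.58 FPKM in cKO and 65.4 ± 9.75 FPKM in Control, but its log2 fold change turned from -0.87 to 0.31 with FPKM rescaled to sum to 1000000. The other gene called lower was Egr3, a zinc finger factor induced by GDNF, with 3.63, 2.49 and 0.910 FPKM in cKO, against 8.34, 9.31 and 6.89 FPKM in Control. Under that scaling it was not called (limma adjusted p of 0.14). Lhx1, another gene induced by GDNF in cultured spermatogonia, stayed under 1 FPKM in every library, at 0.132 ± 0.0551 FPKM in cKO and 0.881 ± 0.120 FPKM in Control. Neurog3, a marker of progenitors, had 1.66 ± 0.409 FPKM in cKO and 0.172 ± 0.123 FPKM in Control. Egr2 and Pou3f1, of the same list, were called higher (limma adjusted p of 0.0043 and 4.7e-05). They had 5.14 ± 3.16 and 4.28 ± 0.740 FPKM in cKO, against 1.11 ± 0.564 and 0.744 ± 0.292 FPKM in Control. Egr2, Egr3, Lhx1, Mycn, Neurog3, Pou3f1, Upp1 and Utf1 were named after their values were seen. Bcl6b, a further target of GDNF, had 1.07 ± 0.246 FPKM in cKO and 1.36 ± 0.240 FPKM in Control and was not called. Its log2 fold change turned from -0.25 to 0.73 with FPKM rescaled to sum to 1000000 (limma adjusted p of 0.021). It was 0.40 with reads rescaled to 1000000 (0.079) and 1.11 after quantile normalization (0.00088).

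Of 23 genes of differentiating spermatogonia and meiotic entry, 17 were called higher, 4 lower and 2 in neither direction, with a median log2 fold change of 2.05. The summed level of the 23 was 1233 to 1403 FPKM in cKO and 1123 to 1173 FPKM in Control. Ddx4 and Dmrtb1, the 2 most abundant of them in Control, fell. The sum therefore does not show the rise of the 17 genes called higher. The other undifferentiated genes summed to 494.2 to 527.5 FPKM in cKO and 179.5 to 213.3 FPKM in Control. Kit, the receptor for stem cell factor on differentiating spermatogonia, had 23.3 ± 2.88 FPKM in cKO and 4.58 ± 1.25 FPKM in Control. Zbtb16 stood at 0.258, 0.293 and 0.287 times Kit in cKO, against 0.324, 0.231 and 0.233 times in Control. Lin28a stood at 0.637, 0.644 and 0.747 times Kit in cKO, against 0.522, 0.730 and 0.572 times in Control. Both ratios overlapped between the groups. Uchl1 stood at 9.40, 10.43 and 10.46 times Kit in cKO, against 9.30, 7.95 and 8.64 times in Control, and these did not overlap. The 3 ratios to Kit were computed after the values were seen and carry no test. Dazl, an RNA-binding protein of germ cells, had 351.5 ± 45.0 FPKM in cKO and 86.8 ± 16.8 FPKM in Control, whereas Ddx4, the germ cell helicase, had 97.6 ± 6.25 FPKM in cKO and 337.6 ± 34.2 FPKM in Control. Dmrtb1, which controls the entry into meiosis, had 26.0 ± 2.88 FPKM in cKO and 388.3 ± 53.8 FPKM in Control, and Sycp3, of the synaptonemal complex, had 136.0 ± 19.7 FPKM in cKO and 107.0 ± 4.45 FPKM in Control.

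Counts for the somatic cell types other than Sertoli cells are read beside 36.2% of all genes tested called higher and 50.4% called lower, and with so few genes they set none of these lists apart. Of 7 Leydig cell genes tested, 1 was called higher and 4 lower, with summed levels of 19.0 to 74.0 FPKM in cKO and 94.3 to 159.2 FPKM in Control. Of 11 peritubular myoid genes, 5 were called higher and 0 lower by limma, with sums of 77.2 to 93.9 FPKM in cKO and 34.6 to 67.2 FPKM in Control. Of 9 macrophage genes, 4 were called higher and 1 lower, with sums of 99.2 to 317.5 FPKM in cKO and 222.0 to 266.6 FPKM in Control. Neither of the 2 endothelial genes tested was called. Id4 and Gfra1 lay lower in the group with the lower spermatocyte and spermatid sums. Sertoli and spermatogonial sums were higher in the group where Zbtb16, Lin28a, Uchl1 and Ret were. Any gene that separates the groups lines up with these sums in this way. Within Control, Id4 was lowest and Gfra1 highest in replicate 1, which had the highest spermatocyte and spermatid sums. Within cKO, Zbtb16, Lin28a and Uchl1 were highest in replicate 3, which had the lowest Sertoli sum. Per 1000 FPKM of the Sertoli sum, Zbtb16 stood at 4.41, 7.11 and 10.18 in cKO, against 4.99, 3.86 and 2.85 in Control, and the groups overlapped. Id4 stood at 2.57, 3.29 and 3.41 in cKO, against 48.2, 34.9 and 26.6 in Control. Gfra1 stood at 0.476, 0.962 and 1.06 in cKO, against 11.7, 5.87 and 4.25 in Control. Both lay lower in cKO on this scale. These ratios too were computed after the values were seen and carry no test. The part of Sertoli cells and of the other cell types in these results was not tested.

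**Figure D5:**
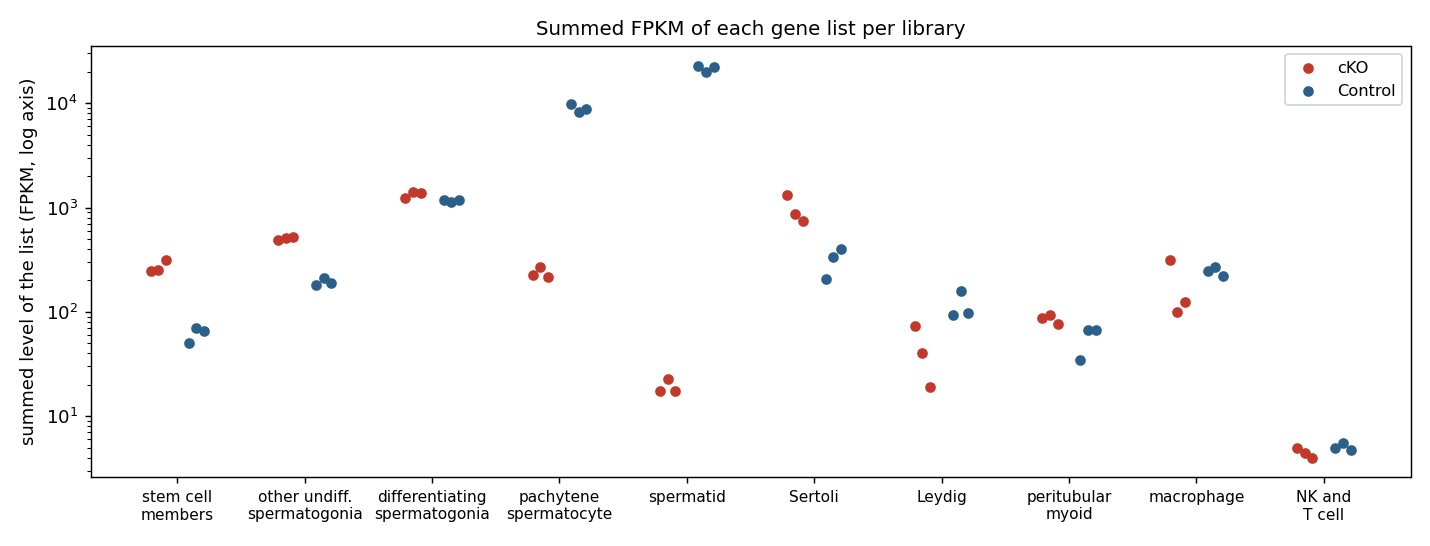
Summed FPKM of each gene list per library on a log axis, for the 3 cKO and 3 Control libraries. Sums of the 10 stem cell genes, of other undifferentiated spermatogonia and of Sertoli cells lie higher in cKO, and those of spermatocytes and spermatids lie far lower.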

How the data were processed

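The authors deposited FPKM values for 54532 genes in 6 libraries, with gene length and position. The submitters' processing notes name HISAT2 2.0.5 and the build mm10. The sources used here do not give the counter, the annotation release or the use of strand. FPKM times gene length gave whole multiples of 1 read for 100% of nonzero values within 0.01 read. The divisor behind the deposited FPKM was 1.37 to 1.42 times the recovered total in cKO and 0.691 to 0.774 times in Control, and equalled a median-of-ratios size factor times the geometric mean of the totals. All 10 genes had the coordinates and exon length of GENCODE M21.

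Genes were compared on log2(FPKM + 0.5) by limma 3.58.1 (R 4.3.3) with empirical Bayes moderation, a mean-variance trend and Benjamini-Hochberg adjustment over the 16791 genes whose mean reached 1 FPKM. The fit was tested on simulated data. No replicate was a repeat of another: their counts gave a chi-square per gene of 7.55 to 14.7. Libraries with the same replicate number had deviations from the group means that correlated at -0.122, -0.0530 and -0.0400 across genes, so the numbers were not taken to pair them.

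The 10 genes, the lists and the ratios were chosen with earlier results of these data known. Besides the 10 and Bcas2, the rule for names took up to 4 genes per list with the highest mean FPKM, and paralogs; some of these are not reported here. Alternatives were voom on recovered reads, other scalings, pseudocounts and filters, a fit with the replicate number as a block, sample weights, a fit without the trend, protein-coding genes alone and leaving out each library. Promoter sequences are from RefSeq (GRCm38.p6). Intervals cover counting error only. Python 3.11.15, numpy 2.4.6, pandas 2.3.3, scipy 1.17.1 and matplotlib 3.10.9 prepared tables and figures.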

Additional observations from a re-analysis of the deposited data

How the results depend on the processing

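Uchl1, Lin28a, Zbtb16 and Id4 kept their direction and call in every alternative in which they were tested (17 for Zbtb16 and 18 for each of the others), with log2 fold changes of 2.41 to 4.04, 2.05 to 3.61, 1.79 to 3.42 and -1.90 to -0.69. Etv5 lost its call in 1 alternative, without Control replicate 1 (0.65, limma adjusted p of 0.065), and the cause was not tested. The members called lower were 1 in place of 2 with FPKM rescaled to sum to 1000000 and after quantile normalization, where Gfra1 was not called and, under the second, had a log2 fold change of 0.30. Nanos3 reversed to 0.86, 0.52 and 0.94 with FPKM rescaled, reads rescaled and quantile normalization. With a filter at 5 FPKM only 3 members were tested, 2 called higher and 1 lower, and 3227 of 9583 genes were called higher and 5320 lower, since fewer genes enter. Without each library in turn, 3 to 4 members were called higher and 2 lower. With FPKM rescaled, 9109 genes were called higher and 6084 lower, against 6075 and 8462 as deposited. Under that scaling 54.2% of all genes tested were called higher and 36.2% lower. Genes called lower were 0 of 27 tested in the other undifferentiated list, 4 of 35 in GDNF signalling and 2 of 21 in CCR4-NOT. In Leydig 1 of 7 and in retina 0 of 4 were called lower. Called higher were 1 of 18 in pachytene, 10 of 11 in peritubular myoid, 8 of 9 in macrophage and 1 of 2 in endothelial. That scaling raised the median log2 fold change by 1.12; otherwise the cause of these shifts was not tested. With the replicate number as a block, 4 members were called higher and 2 lower, 5930 genes higher and 8364 lower, and no call of a member changed. Depth limits what can be shown for Nanos2 (2 reads in cKO, 0 in Control), Eomes (20 and 9) and Nanos3 (94 and 64). The ratio of Nanos3 to Nanos2 was not formed because Nanos2 is at 0 in 4 libraries.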
